A study of Mus musculus with 16 samples.

Results

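The genes described here are the nuclear-encoded genes of respiratory complex I, the NADH:ubiquinone oxidoreductase of the inner mitochondrial membrane, in mouse hearts under pressure overload. They were chosen by name: a gene symbol made of Nduf, a letter code (a, b, c, s, v, ab or af) and a number, with a summed raw count of at least 160 over the 16 libraries. This gave 45 of the 55487 genes in the count table, 37 with subunit names and 8 with assembly factor names (Ndufaf1 to Ndufaf8). No gene with such a name fell under the limit, and the lowest sum above it was 12729 counts, for Ndufaf6. The rule left out 6 other Nduf symbols, mainly processed pseudogenes. Of these 6, Ndufb1-ps had the highest summed count (70164) and is annotated as a long noncoding RNA from a bidirectional promoter, and Ndufa4l2 is annotated as protein-coding. Ndufa4 was kept because of its name, although structural work places its protein in complex IV.

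Hearts came from 4 groups of 4 male mice, 1 library per mouse, with RNA taken from the apex 4 weeks after surgery. Control (Ctrl) mice, labelled WT, carried Cardinal, a long noncoding RNA gene annotated in the mouse as Gm12295, and knockout (KO) mice, labelled CARDINAL-KO, had it deleted. In transverse aortic constriction (TAC) the aorta is tied around a needle to narrow it, so that the heart pumps against a higher pressure, and sham mice were operated on without ligation. Groups are named by genotype and operation (KO TAC, for example), and the labels give neither the age nor the strain of the mice.

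Complex I takes electrons from NADH, passes them through a flavin and a chain of iron-sulfur clusters to ubiquinone, and pumps protons across the inner membrane. Its catalytic core is made of subunits conserved from bacteria. Of these, Ndufv1, Ndufv2 and Ndufs1 form the N module that binds NADH, and Ndufs3, Ndufs7 and Ndufs8 belong to the Q module that leads to ubiquinone. The mitochondrial genome encodes the core of the membrane arm, and accessory subunits surround the core. Assembly factors help to build the enzyme and are absent from its finished form. The heart depends on oxidative phosphorylation for most of its ATP, and cardiomyocytes are rich in mitochondria.

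In the GENCODE M21 annotation (build GRCm38) the genes that the results turn on are all protein-coding, with Ndufs1 (ENSMUSG00000025968) at chr1:63143596-63176833 on the minus strand, Ndufv1 (ENSMUSG00000037916) at chr19:4007384-4012806 on the minus strand, Ndufs3 (ENSMUSG00000005510) at chr2:90894634-90904827 on the minus strand, Ndufs7 (ENSMUSG00000020153) at chr10:80249121-80256794 on the plus strand, Ndufa9 (ENSMUSG00000000399) at chr6:126821721-126849136 on the minus strand, Ndufb10 (ENSMUSG00000040048) at chr17:24722060-24724478 on the minus strand, Ndufa11 (ENSMUSG00000002379) at chr17:56717767-56722141 on the plus strand and Ndufaf1 (ENSMUSG00000027305) at chr2:119655446-119662827 on the minus strand.

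The promoters of 3 subunit genes are shown as examples of genes with and without a call in the comparisons described below. Ndufs7 and Ndufa9 were among the genes with lower levels in KO TAC than in Ctrl TAC, whereas Ndufa11 was called in no comparison with the TMM scaling used below. The sequences are from RefSeq (assembly GRCm38.p6) and run 5′ to 3′ on the strand of the gene, from 250 bases before to 50 bases after the annotated start. Capitals mark matches to 1 of 4 short motifs written for regulators of respiratory genes, and positions are counted from 1 at the 5′ end.
Ndufs7, chr10:80249199-80249498, plus strand: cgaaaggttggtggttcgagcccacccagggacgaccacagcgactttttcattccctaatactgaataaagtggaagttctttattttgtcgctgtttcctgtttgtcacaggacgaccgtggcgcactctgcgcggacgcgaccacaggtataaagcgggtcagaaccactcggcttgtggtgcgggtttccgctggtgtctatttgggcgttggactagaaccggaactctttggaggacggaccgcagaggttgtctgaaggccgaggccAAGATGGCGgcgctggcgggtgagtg
Ndufa9, chr6:126849095-126849394, minus strand: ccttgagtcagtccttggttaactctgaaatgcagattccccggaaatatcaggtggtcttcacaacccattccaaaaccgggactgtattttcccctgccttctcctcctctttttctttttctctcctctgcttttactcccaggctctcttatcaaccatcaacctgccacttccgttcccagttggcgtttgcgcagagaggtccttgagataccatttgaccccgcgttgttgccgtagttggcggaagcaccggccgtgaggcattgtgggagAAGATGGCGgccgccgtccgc
Ndufa11, chr17:56717512-56717811, plus strand: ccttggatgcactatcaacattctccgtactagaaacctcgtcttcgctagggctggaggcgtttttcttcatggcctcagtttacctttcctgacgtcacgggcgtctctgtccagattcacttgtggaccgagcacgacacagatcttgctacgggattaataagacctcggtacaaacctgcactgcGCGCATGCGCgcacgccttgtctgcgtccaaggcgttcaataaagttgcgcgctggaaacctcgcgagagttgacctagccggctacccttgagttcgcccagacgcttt

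In the Ndufs7 promoter the capitals are AAGATGGCG, a motif of YY1, starting at position 275. In the Ndufa9 promoter the same motif starts at position 280. The capitals in the Ndufa11 promoter are 2 overlapping matches to GCGCATGCG, a motif of NRF1, 1 on each strand, starting at positions 191 and 192. All motifs were searched as exact letters on both strands in the 33 subunit and 7 assembly factor promoters that the table held, and in all 27025 promoters of the same length. AAGATGGCG was found in 5 subunit promoters (15.2%; Ndufa9, Ndufc1, Ndufs4, Ndufs6 and Ndufs7), in that of Ndufaf8, and in 1.64% of all promoters. GCGCATGCG was in 2 subunit promoters (6.06%; Ndufa8 and Ndufa11), in those of Ndufaf4 and Ndufaf5, and in 1.95% of all. CCGGAAG, a core motif of GABP and other ETS factors, was in 4 subunit promoters (12.1%), in 2 of 7 factor promoters (28.6%; Ndufaf1 and Ndufaf8) and in 9.93% of all. AAGGTCA, a core site of the estrogen-related receptors (ERR), was in 3 subunit promoters (9.09%), in no factor promoter and in 5.38% of all. The motifs did not follow the calls gene by gene. Of the other genes called lower in KO TAC than in Ctrl TAC, Ndufb10 and Ndufb11 had none of the 4 motifs and Ndufs3 had CCGGAAG. Ndufc1, with AAGATGGCG, was not called after TAC in KO hearts in the fit of all 16 libraries. A match describes the letters of these windows and is not evidence of binding.

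The libraries held 53169437 to 79404714 counts, and 21.9% to 28.8% of these were from mitochondrially encoded genes. Levels are given as CPM, the counts of a gene relative to the library total (the usual CPM unit), with the total scaled by the TMM method in edgeR. TMM scales libraries so that most genes keep equal levels, and its factors were 0.9055 to 0.989 in the sham libraries and 0.9803 to 1.075 in the TAC libraries. All 45 genes passed the filter on low counts, and 18 of them share exon bases with another gene. The strand setting of the counting is not given in the sources used here, so reads of those overlaps could not be told apart. Of the results below, Ndufaf2 is the most exposed, with 1955 of its 2978 exon bases shared with B230220B15Rik on the opposite strand.

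Cardinal itself was measured first, as a check of the labels. It was at 3.24 to 3.86 CPM in Ctrl sham, at 2.69 to 8.02 CPM in Ctrl TAC and at 0.297 to 0.553 CPM in KO sham. In KO TAC 1, 2 and 3 it was at 0.276 to 0.371 CPM. The library labelled KO TAC 4 held 377 Cardinal counts, or 4.55 CPM (95% exact Poisson interval 4.10 to 5.03, which covers counting error only), within the range of the Ctrl libraries. The main values that rest on KO TAC are therefore also given without this library. Its animal number belongs to the series starting with 25, as do those of Ctrl TAC 2, 3 and 4, while all other animals have numbers starting with 3, and the labels do not say what these series stand for. Levels of Cardinal did not overlap between KO sham and Ctrl sham (exact permutation test, two-sided, p = 0.0286, the smallest that 4 against 4 libraries allow; Benjamini-Hochberg adjusted over 4 tests, 0.114).

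All 37 subunit genes were well expressed in the sham heart. Per kilobase of the principal transcript, Ctrl sham levels of subunits had a median of 252 FPKM (CPM per kilobase), from 28.7 ± 1.66 (SD, n = 4) for Ndufb2 to 780 ± 47.7 for Ndufa4. The Ndufb2 value rests on the longer of its principal transcripts (4371 bases), and was 276 FPKM with the shortest (455 bases). Assembly factors were much lower, with a median of 14.1 FPKM, from 11.8 ± 0.715 for Ndufaf6 to 27.8 ± 1.44 for Ndufaf1. All 8 factors thus lay under the lowest subunit. Levels varied little among mice, with a median coefficient of variation over subunits of 6.23% in Ctrl sham, 3.59% in KO sham, 6.95% in Ctrl TAC and 6.28% in KO TAC.

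The first comparison asked how pressure overload changed these genes in hearts with Cardinal. In Ctrl hearts 16 of the 37 subunit genes fell after TAC, none rose, and none of the 8 assembly factors passed the test in either direction (edgeR quasi-likelihood test, Benjamini-Hochberg adjusted p under 0.05 over 18275 genes). No factor had an unadjusted p under 0.05 in this comparison, and DESeq2 called none of them. Of all genes tested, 9.6% were called lower and 10.4% higher. The median log2 fold change was −0.16 over subunits (range −0.37 to 0.11), −0.02 over assembly factors and 0.00 over all genes. Among the core subunits 6 of 7 fell, with a median of −0.26, and Ndufs7, the exception, had an adjusted p of 0.0937 by edgeR. In 11 subunits all 4 Ctrl TAC libraries lay under all 4 Ctrl sham libraries, as was so for 9.97% of all genes.

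Ndufs1, the largest subunit of the N module and a carrier of iron-sulfur clusters, had the lowest p value. It was at 822, 674, 679.9 and 703 CPM in Ctrl sham 1 to 4 and at 549.5, 548, 590.1 and 541.5 CPM in Ctrl TAC 1 to 4. Every TAC library was under every sham library, and the fall was by 22.6% (log2 fold change −0.37 ± 0.06 SE, adjusted p = 0.0002, edgeR). Ndufv1, the flavin-binding subunit where NADH is oxidised, was at 620.5, 589, 549.5 and 613 CPM in Ctrl sham and at 457, 550.0, 501 and 453 CPM in Ctrl TAC. Ctrl TAC 2 lay just above the lowest sham library, so the groups overlapped, and the fall was by 17.3% (adjusted p = 0.00304, edgeR). Ndufa3, a small accessory subunit of the membrane arm, was at 209.5, 181.5, 177.5 and 202 CPM in Ctrl sham and at 172, 134, 171 and 152 CPM in Ctrl TAC, with no overlap, and fell by 18.3% (adjusted p = 0.0123, edgeR).

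The other core subunits moved less. Ndufv2, the partner of Ndufv1 with a cluster of its own, was at 451, 366, 377 and 388 CPM in Ctrl sham and at 346, 285, 367 and 324 CPM in Ctrl TAC, and fell by 16.4%. Ndufs8, which carries the last clusters before ubiquinone together with Ndufs7, was at 192, 162, 167 and 176 CPM against 168, 147, 149 and 142 CPM, and fell by 13.1%. Both pairs of groups overlapped through 1 Ctrl TAC library, Ctrl TAC 3 for Ndufv2 and Ctrl TAC 1 for Ndufs8. Ndufs3 was at 264.5, 238.5, 232 and 248 CPM against 218, 227, 228.5 and 208 CPM, without overlap, and fell by 10.4%. Ndufa9, an accessory subunit at the joint of the 2 arms that belongs to the dehydrogenase fold family, is listed below with the N and Q junction. It was at 466, 439, 422 and 475 CPM in Ctrl sham. In Ctrl TAC it was at 419, 411, 416 and 374 CPM, again under every sham library, a fall of 10.1% (adjusted p = 0.0302, edgeR).

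**Figure D1:**
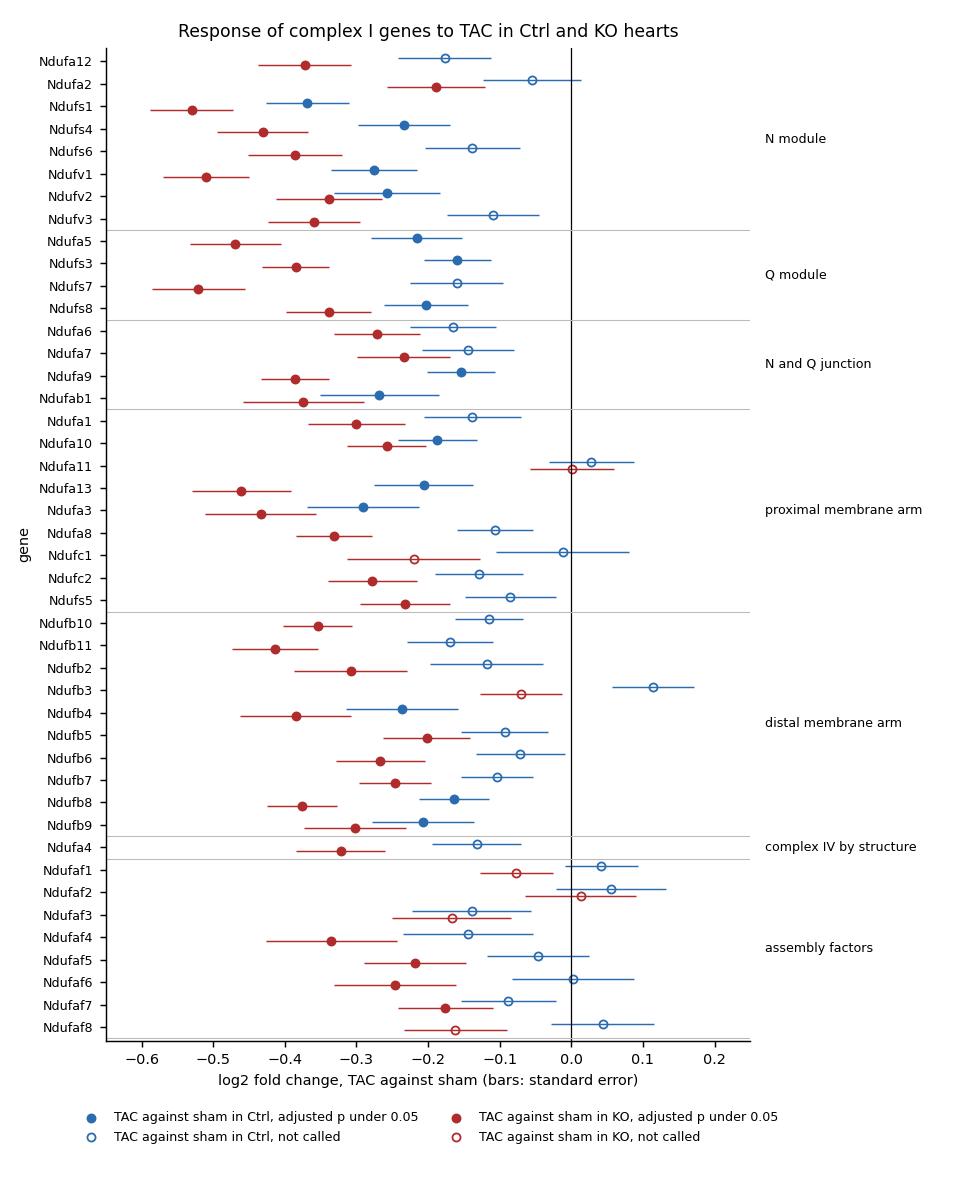
Log2 fold change of TAC against sham (x axis) for 44 of the 45 genes (y axis, grouped by the part of the enzyme that holds the protein), in Ctrl (blue) and KO (red) hearts, each over 4 against 4 libraries. Bars are standard errors and filled points passed an adjusted p of 0.05; the red point lies to the left of the blue one for every gene shown.

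In KO hearts the same operation was followed by lower levels of nearly the whole set. After TAC 34 of 37 subunits and 4 of 8 assembly factors fell and none rose, where 16.5% of all genes were called lower and 17.8% higher (edgeR). The median log2 fold change was −0.34 over subunits (range −0.53 to 0.00), −0.17 over assembly factors and 0.00 over all genes. All 7 core subunits fell. In 32 subunits and 3 assembly factors no KO TAC library overlapped a KO sham library, as was so in the lower direction for 16.6% of all genes. All 16 genes called in Ctrl hearts were called in KO hearts too. Without the library labelled KO TAC 4 the medians were −0.35 over subunits and −0.16 over factors, and 33 subunits and 2 factors were called, against 31.0% of all genes in both directions.

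Ndufs1 was at 689, 708, 667 and 738 CPM in KO sham 1 to 4 and at 479.8, 497, 475 and 488 CPM in KO TAC 1 to 4, a fall of 30.8% (log2 −0.53 ± 0.06, adjusted p = 1.74e-06, edgeR). Ndufs7, the subunit that holds the cluster next to ubiquinone, was at 297.8, 297.7, 319 and 297.5 CPM in KO sham and at 218, 222, 207 and 198 CPM in KO TAC, a fall of 30.3% (adjusted p = 7.01e-06, edgeR). Ndufv1 was at 607, 581, 585 and 627 CPM against 408.5, 438.5, 422 and 415 CPM, a fall of 29.8%. In each of these genes the 2 groups stood far apart, with all 4 KO TAC libraries under all 8 sham libraries of either genotype. Ndufa9 was at 462.5, 454, 467.5 and 469.5 CPM against 352, 367, 348 and 351.5 CPM and fell by 23.5%. Ndufs3 was at 258, 248, 255.5 and 249.8 CPM against 195.5, 195.9, 188 and 195 CPM and fell by 23.4%. Ndufs8 and Ndufv2 fell by 20.9% each. Without the library labelled KO TAC 4 the log2 fold changes were −0.53 for Ndufs1, −0.49 for Ndufs7, −0.50 for Ndufv1, −0.38 for Ndufa9, −0.39 for Ndufs3, −0.33 for Ndufs8 and −0.35 for Ndufv2, and all of these genes were still called.

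Only 3 subunits did not pass the test in KO hearts. Ndufa11, an accessory subunit of the membrane arm near the contact with complex III in supercomplexes, was at 160.1, 165.7, 170.4 and 155.0 CPM in KO sham and at 160.6, 179.6, 160.7 and 151.0 CPM in KO TAC. Its groups overlapped throughout, and the log2 fold change was 0.00 ± 0.06 in KO and 0.03 ± 0.06 in Ctrl hearts. Ndufb3, a small subunit of the distal membrane arm, had −0.07 ± 0.06 in KO and 0.11 ± 0.06 in Ctrl hearts. Ndufc1, whose protein lies in the proximal membrane arm, had −0.22 ± 0.09 in KO (adjusted p = 0.0773, edgeR) and −0.01 ± 0.09 in Ctrl hearts. Of these 3, Ndufa11 shares 70 exon bases with Vmac on the opposite strand. These 3 were singled out after their values were seen.

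**Figure D2:**
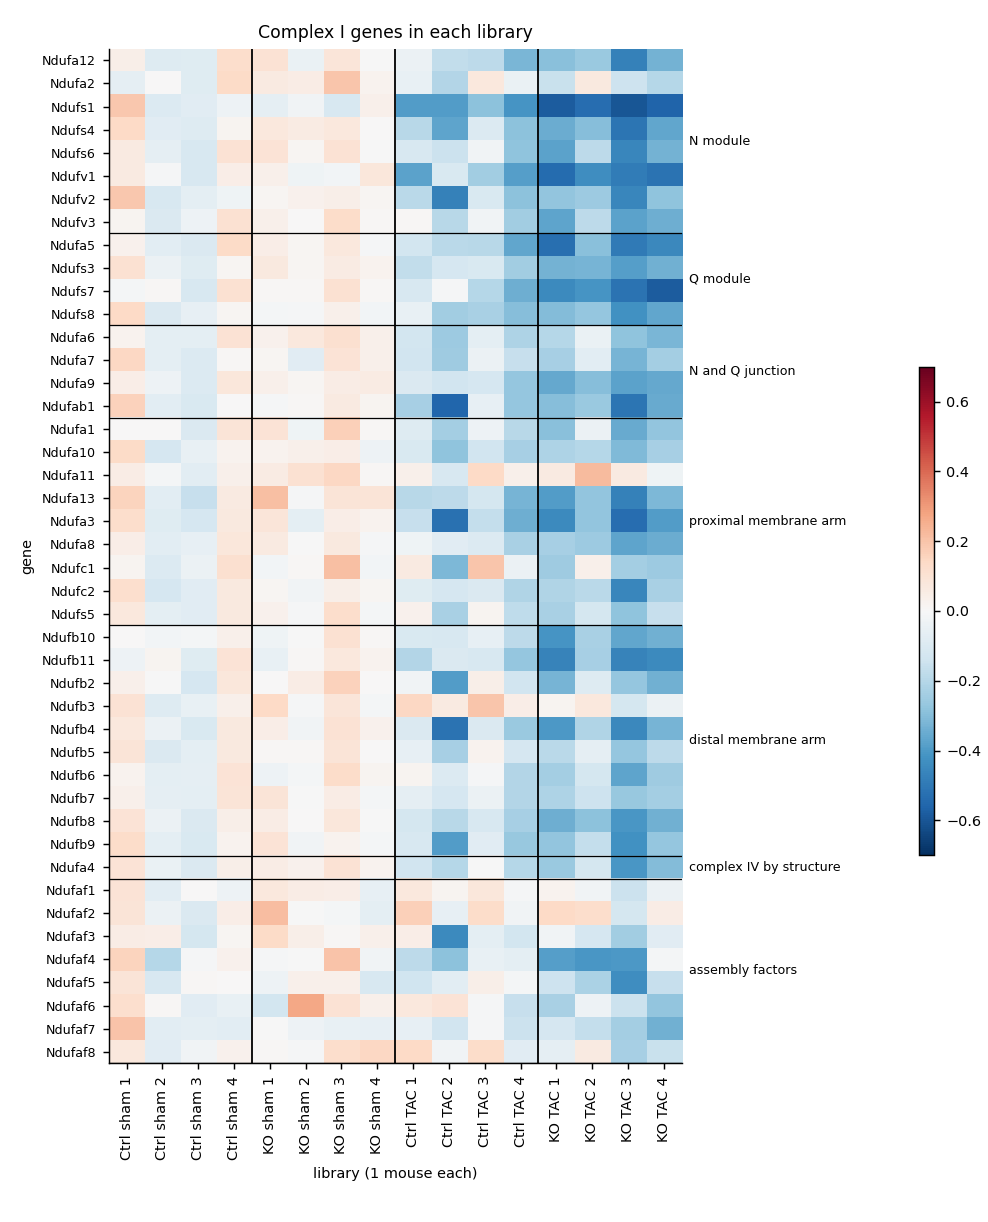
Level of 44 of the 45 genes (rows, ordered by the part of the enzyme) in each of the 16 libraries (columns, 1 mouse each), as log2 of CPM over the mean CPM of Ctrl sham; blue is lower and red higher. The KO TAC columns are blue for most subunits, with Ndufa11 as an exception, and the assembly factor rows at the bottom are paler than the core subunit rows.

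By the position of the protein, all 5 Q module genes and all 8 N module genes fell in KO hearts, with medians of −0.47 and −0.38 on the log2 scale, against −0.20 and −0.21 in Ctrl hearts, where 4 of 5 and 4 of 8 fell. In the list for the junction of both modules, which holds Ndufa9, 4 of 4 genes fell in KO (median −0.32) and 2 of 4 in Ctrl hearts (−0.16). In the membrane arm 7 of 9 proximal genes (median −0.28) and 9 of 10 distal genes (−0.31) fell in KO hearts, against 3 of 9 (−0.13) and 3 of 10 (−0.12) in Ctrl hearts. Ndufa4, the gene of complex IV by structure, fell by 0.32 ± 0.06 on the log2 scale in KO hearts and had −0.13 ± 0.06 in Ctrl hearts, where it was not called. Of all genes 9.6% were called lower in Ctrl and 16.5% in KO hearts. The medians by part of the enzyme are a description, and the parts were not tested against each other. Across the 37 subunits the TAC effects in Ctrl and in KO hearts had a Spearman correlation of 0.76 and a Pearson correlation of 0.82, a description over genes that were measured in the same libraries. The effect in KO hearts had a Spearman correlation of −0.40 with the length of the transcript and −0.31 with the FPKM level in Ctrl sham.

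Scaling bears on all of these counts. With library totals in place of TMM, an alternative added after the TMM factors were seen, the median of all genes moved to 0.11 in the Ctrl and 0.16 in the KO comparison. The subunit medians were then −0.05 and −0.18 and the factor medians 0.085 and −0.009. Relative to the shift of all genes the subunit medians were −0.16 and −0.34 and the factor medians −0.03 and −0.17. Taking off that shift undoes the change of scaling, so these relative values are no check of it. The calls were fewer. In Ctrl hearts 5 genes were then called, of which 3, Ndufs1 and Ndufa3 among them, were lower and Ndufb3 and Ndufaf1 higher, and 28 of 37 subunits had negative values in place of 35. In KO hearts 23 were called, 22 of them lower and Ndufa11 higher, and 35 of 37 subunits had negative values in place of 36. The share of all genes called in either direction was then 23.7% in Ctrl and 40.4% in KO hearts. Leaving out Ctrl sham 1 left 4 genes called in Ctrl hearts (Ndufa3, Ndufs1 and Ndufv1 among them), beside 14.6% of all genes. Leaving out Ctrl TAC 4 left 5, beside 14.9% of all genes. A term for the 2 series of animal numbers left 3 (Ndufs1 and Ndufv1 among them) in Ctrl and 35 in KO hearts. The share of all genes called was 13.6% in Ctrl and 34.1% in KO hearts with this term. A term for animal numbers starting with 33 (Ctrl sham 4 and KO sham 1, 2 and 3) left 12 in Ctrl and 27 in KO hearts. Of all genes 21.1% were then called in Ctrl and 26.4% in KO hearts, where the subunit median was −0.29.

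Assembly factors as a class moved less with TAC than subunits did. The median over subunits minus the median over factors was −0.14 in Ctrl and −0.17 in KO hearts on the log2 scale, where the same difference within a library varied among the mice of these groups with an SD of 0.10 and 0.07. Since subunits and factors differ in level, this comparison has no test. In Ctrl hearts the factor log2 fold changes ranged from −0.14 to 0.05, with 4 negative and 4 positive.

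Ndufaf1, a chaperone of the membrane arm that works in the complex with Acad9 and Ecsit, was at 43.2, 38.3, 40.5 and 39.4 CPM in Ctrl sham and at 42.5, 40.8, 42.7 and 40.1 CPM in Ctrl TAC. In KO sham it was at 42.5, 41.8, 41.7 and 38.8 CPM and in KO TAC at 41.1, 39.6, 36.3 and 39.2 CPM. All 4 groups overlapped, and neither TAC effect was called with TMM scaling (0.04 ± 0.05 in Ctrl and −0.08 ± 0.05 in KO hearts). Ndufaf2, a paralogue of the subunit Ndufa12, was at 15.24 to 17.41 CPM in Ctrl sham, 15.72 to 18.35 in Ctrl TAC, 15.59 to 19.0 in KO sham and 15.03 to 17.98 in KO TAC, and no group stood apart.

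Ndufaf3 and Ndufaf4, which act together on the Q module and the early membrane arm, were not tested against each other. Ndufaf3 was at 19.3, 19.3, 17.1 and 18.8 CPM in Ctrl sham, 19.2, 13.7, 17.8 and 17.0 in Ctrl TAC, 20.4, 19.1, 18.7 and 19.1 in KO sham and 18.4, 17.1, 15.8 and 17.6 in KO TAC. It was not called in either genotype (−0.14 ± 0.08 in Ctrl and −0.17 ± 0.08 in KO hearts), although its KO TAC libraries lay under all KO sham libraries. Ndufaf4 was at 52.7, 52.8, 60.7 and 52.1 CPM in KO sham and at 40.5, 40.0, 40.0 and 52.5 CPM in KO TAC, and fell by 20.7% (adjusted p = 0.00795, edgeR). The high KO TAC value is that of the library labelled KO TAC 4, which reached the lowest KO sham value; without it the log2 fold change moved from −0.335 to −0.44. In Ctrl mice Ndufaf4 was at 58.9, 46.1, 52.8 and 54.1 CPM after sham and at 46.6, 43.5, 51.0 and 50.6 CPM after TAC.

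The other 3 factors that fell in KO hearts were Ndufaf5, a hydroxylase of Ndufs7, Ndufaf7, a methyltransferase, and Ndufaf6, a factor needed for early assembly. Ndufaf5 was at 13.8, 14.5, 14.6 and 13.1 CPM in KO sham and at 12.8, 12.2, 10.5 and 12.7 CPM in KO TAC, without overlap, a fall on the log2 scale (−0.22 ± 0.07, adjusted p = 0.0243, edgeR). In Ctrl mice it ranged from 13.1 to 15.1 CPM after sham and from 12.8 to 14.6 CPM after TAC. Ndufaf7 was at 24.0, 23.4, 23.2 and 23.1 CPM in KO sham and at 22.1, 21.4, 20.3 and 19.0 CPM in KO TAC, a fall of 11.5% (adjusted p = 0.0459, edgeR). Its Ctrl values were 27.5, 22.8, 22.9 and 22.8 CPM after sham and 23.05, 21.8, 23.9 and 21.6 CPM after TAC. Ndufaf6 was at 11.62, 15.37, 13.62 and 13.04 CPM in KO sham and at 10.9, 12.4, 11.5 and 10.5 CPM in KO TAC, groups that overlapped, a fall on the log2 scale (−0.25 ± 0.09, adjusted p = 0.0321, edgeR), and it ranged from 11.4 to 13.8 CPM over all Ctrl mice. Among the factors only Ndufaf4 and Ndufaf5 were called without the library labelled KO TAC 4, as was so with a term for the series of animal numbers. Only Ndufaf4 was called without KO TAC 3, without KO sham 2, without KO sham 3 or with no filter beyond 1 count. In KO hearts no factor was called with library totals or with the term for numbers starting with 33. Ndufaf8, which works with Ndufaf5, was at 14.6 to 16.3 CPM in KO sham and 12.55 to 15.4 CPM in KO TAC and was not called.

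**Figure D3:**
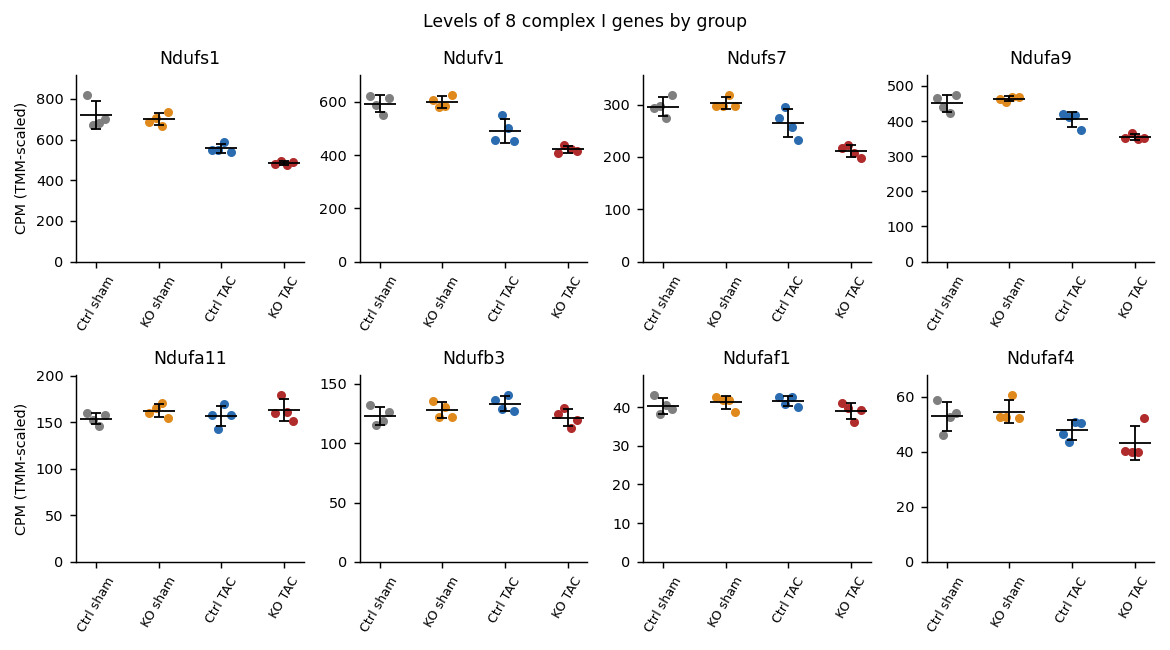
CPM (y axis, from 0, TMM-scaled) of 8 of the genes in the 4 groups; points are single mice, lines are means and bars are SD (n = 4). The means of Ndufs1, Ndufv1, Ndufs7 and Ndufa9 step down from sham to Ctrl TAC to KO TAC, and Ndufa11, Ndufb3 and Ndufaf1 overlap across groups. Ndufs7 was not called between Ctrl sham and Ctrl TAC, nor Ndufs1 and Ndufv1 between Ctrl TAC and KO TAC. The library labelled KO TAC 4, which carries Cardinal, holds Ndufaf4 at 52.5 CPM against 40.0 to 40.5 in KO TAC 1 to 3. Its mean over the 8 assembly factors, on the log2 scale relative to Ctrl sham, was −0.124, against −0.097, −0.096 and −0.244 in KO TAC 1 to 3.

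The next question was whether loss of Cardinal changed these genes without pressure overload. In sham hearts none of the 45 genes was called between KO and Ctrl by edgeR or by DESeq2, and none had an unadjusted edgeR p under 0.05. Of all genes 0% were called by edgeR, 2.62% had an unadjusted p under 0.05 and 0.0164% were called by DESeq2. Medians were 0.03 over subunits and 0.04 over factors on the log2 scale, and single values ran from −0.04 to 0.10, with 41 of 45 positive. The subunit median was 0.008 without Ctrl sham 3, 0.06 without Ctrl sham 1 and 0.005 with the term for animal numbers starting with 33. The lowest p values belonged to Ndufa13, Ndufa11 and Ndufa2. Ndufa13, an accessory subunit that was first described as a cell death regulator, was at 286, 244, 229 and 268 CPM in Ctrl sham and at 297, 255, 273 and 273 CPM in KO sham, which overlapped (0.10 ± 0.07, unadjusted p = 0.167 in the model across all genes, edgeR). Standard errors over the 45 genes were 0.05 to 0.09 on the log2 scale, so small shifts were not detectable with 4 mice per group.

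After TAC the same comparison gave lower levels in KO hearts. Of the 37 subunits 5 were called lower and none higher, and of the 8 factors none (nor by DESeq2), where 1.32% of all genes were called lower and 1.36% higher (edgeR). Values were negative for 36 of 37 subunits and 7 of 8 factors, with medians of −0.14 and −0.13, against 0.00 over all genes. An unadjusted p under 0.05 was reached by 22 subunits and 1 factor, Ndufaf5, and by 18.5% of all genes. The 4 KO TAC libraries lay under all Ctrl TAC libraries for 9 subunits and for Ndufaf5, as was so for 4.99% of all genes. The KO against Ctrl TAC comparison shares its TAC libraries with the comparisons above, so that its values are not independent of them.

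Ndufs7 differed most. It was at 274, 294.6, 258 and 233 CPM in Ctrl TAC 1 to 4 and at 218, 222, 207 and 198 CPM in KO TAC 1 to 4, 20.3% lower in KO (log2 −0.33 ± 0.07, adjusted p = 0.0165, edgeR). All 4 KO TAC libraries, the one labelled KO TAC 4 lowest of all, lay under the 4 Ctrl TAC libraries, and the Ctrl TAC libraries overlapped with Ctrl sham. Ndufb10, an accessory subunit of the distal membrane arm with disulfide bonds, was at 321, 319.8, 332 and 304 CPM in Ctrl TAC and at 260.1, 296, 269 and 274 CPM in KO TAC, lower in KO (log2 −0.22 ± 0.05, adjusted p = 0.0238, edgeR). Ndufa9 was at 419, 411, 416 and 374 CPM against 352, 367, 348 and 351.5 CPM, 12.4% lower (adjusted p = 0.0418, edgeR). Ndufs3, an early core of Q module assembly, was at 218, 227, 228.5 and 208 CPM against 195.5, 195.9, 188 and 195 CPM, 12.1% lower (adjusted p = 0.0419, edgeR). For these 4 genes the groups did not overlap. Ndufb11, an accessory subunit encoded on the X chromosome, was 14.7% lower (adjusted p = 0.0472, edgeR), and its groups overlapped in 1 library, KO TAC 2 (217.6 CPM against 212 in Ctrl TAC 4).

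Several subunits fell short of the threshold with similar sizes. Ndufv1 (−0.22 ± 0.06, adjusted p = 0.0543, edgeR) and Ndufs1 (−0.20 ± 0.06, adjusted p = 0.0687, edgeR) had KO TAC libraries that were all under the Ctrl TAC ones. Among the core subunits, Ndufv2 had −0.06 ± 0.07 and Ndufs8 had −0.14 ± 0.06. Ndufa11 was the only subunit with a positive value, 0.05 ± 0.06.

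The number of calls between KO TAC and Ctrl TAC was not stable. Without the library labelled KO TAC 4 only Ndufs7 (−0.30) and Ndufb10 (−0.22) were called, beside 2.37% of all genes, while Ndufa9 and Ndufs3 had −0.19 each and Ndufb11 −0.21, and the medians were −0.13 over subunits and −0.10 over factors. Without Ctrl TAC 2, without KO TAC 3, with a term for the series of animal numbers, and in a fit of the 8 TAC libraries alone, 0 members were called by edgeR, where 0.342%, 0.452%, 0.0657% and 0.877% of all genes were. DESeq2 on all libraries called 12 members and 6.46% of all genes, so that the calls over all genes moved too. The same 36 of 37 subunits had a negative value in all 27 fits run, Ndufa11 being the other. Within the 25 series the library labelled KO TAC 4 against Ctrl TAC 2, 3 and 4 had a subunit median of −0.14, and within the 3 series KO TAC 1, 2 and 3 against Ctrl TAC 1 had −0.19, with 36 of 37 negative in both, comparisons of 1 library that allow no test.

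Whether TAC acted differently on the genes in the 2 genotypes was tested with the genotype by surgery interaction. All 45 interaction values were negative, with medians of −0.19 over subunits and −0.15 over factors against 0.00 over all genes, but none of the genes was called by edgeR, where 0.0109% of all genes were. Negative values were not particular to complex I. They were found for 39 of 40 genes of complexes II to V (median −0.14) and 12 of 12 cardiomyocyte markers (median −0.19), both described below. An unadjusted p under 0.05 was reached by 18 subunits and no factor, against 11.1% of all genes. The lowest p values belonged to Ndufs7 (−0.36 ± 0.09, adjusted p = 0.195, edgeR), Ndufb10 (−0.24 ± 0.07, adjusted p = 0.236) and Ndufs3 (−0.23 ± 0.07, adjusted p = 0.241). Without the library labelled KO TAC 4 these 3 had −0.33, −0.24 and −0.23, Ndufa11 had 0.009 and the remaining genes were negative, with medians of −0.18 over subunits and −0.15 over factors. DESeq2 called 2 of the genes, Ndufs7 and Ndufb10, and 0.722% of all genes. The larger number of calls after TAC in KO than in Ctrl hearts thus stands beside a test of the difference that called no gene by edgeR. These values build on the same 16 libraries as the comparisons above.

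Other complex I genes were read from lists written by name. Beside the counts in this and the next paragraph, 9.6% of all genes were called lower in Ctrl and 16.5% in KO hearts. Between KO TAC and Ctrl TAC the share called lower was 1.32%. Of 12 tested assembly genes with other names, 1 fell and 1 rose in Ctrl hearts and 7 fell in KO hearts, with medians of −0.05 and −0.19. Ecsit, the partner of Ndufaf1 in early assembly, fell by 19.9% in KO hearts (adjusted p = 2.8e-05, edgeR), and Aifm1, which supports the import of respiratory proteins, fell by 13.2% in Ctrl hearts and fell by 19.9% in KO hearts. Timmdc1, a membrane factor of the proximal arm, rose by 0.18 ± 0.05 on the log2 scale in Ctrl hearts (adjusted p = 0.0264, edgeR). Between KO TAC and Ctrl TAC, Aifm1 and Ecsit were the called genes, with log2 fold changes of −0.20 and −0.18. Of the 7 mitochondrially encoded ND genes, the membrane core of the enzyme, 3 fell in Ctrl and 6 in KO hearts (medians −0.28 and −0.35), and mt-Nd5, of lowest p, fell by 20.2% in Ctrl hearts and fell by 26.2% in KO hearts. None of them was called between KO TAC and Ctrl TAC, where their median was −0.07. These transcripts entered libraries made from poly(A) RNA, and their share of the counts varied as given above.

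The other respiratory complexes gave values near those of complex I. Of 40 genes of complexes II to V, 24 fell in Ctrl hearts (median −0.20), 35 fell in KO hearts (−0.36) and 5 were lower in KO TAC than in Ctrl TAC (−0.12). Sdha, the flavoprotein of complex II, had log2 fold changes of −0.44 in Ctrl hearts, −0.695 in KO hearts and −0.29 between KO TAC and Ctrl TAC, all called (adjusted p = 0.0141 for the last, edgeR). In Ctrl and KO hearts Uqcrc1, a core protein of complex III, had −0.26 and −0.465, Cox6a2, the muscle form of a complex IV subunit, −0.275 and −0.455, and Atp5a1, the alpha subunit of ATP synthase, −0.34 and −0.47, all called. No difference between complexes was tested. Of 12 regulators of respiratory genes, 2 fell in Ctrl hearts, Gabpa and Esrrg (both −0.25 on the log2 scale), 7 fell in KO hearts, of which Esrra, which encodes an ERR, had the lowest p (−0.34) and Ppargc1a, a coactivator, the lowest value (−0.62), and none was called between KO TAC and Ctrl TAC.

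**Figure D4:**
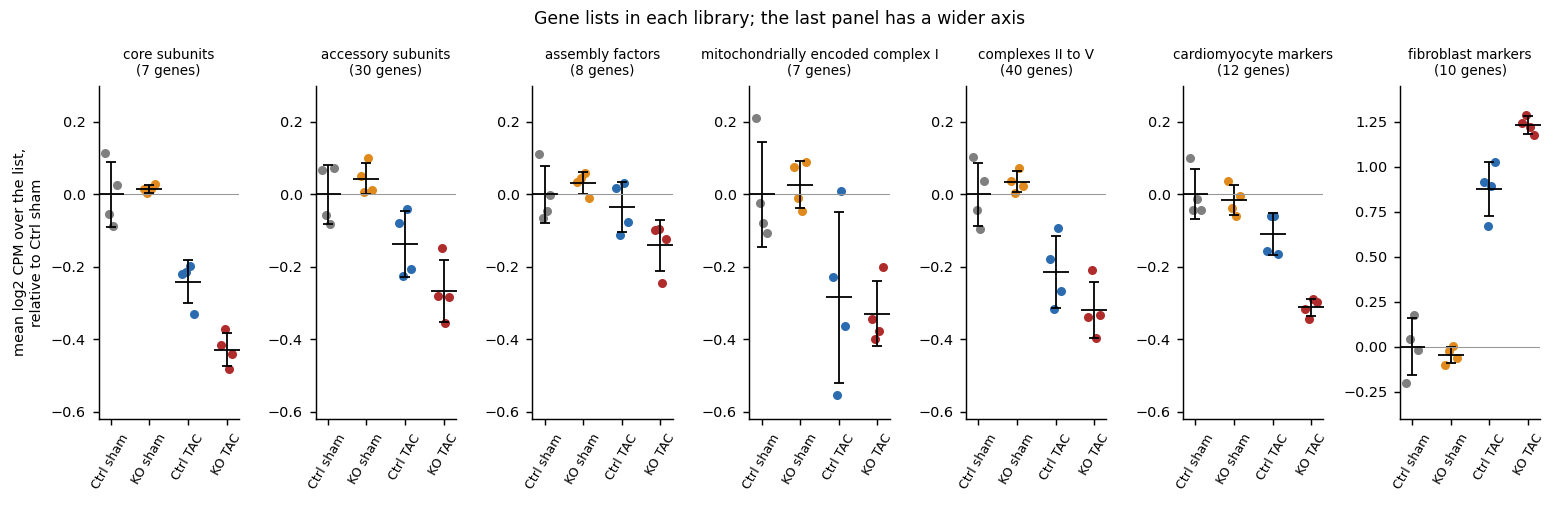
Mean log2 CPM over the genes of a list, relative to the mean of Ctrl sham (y axis), in each library, by group; points are mice, lines are means and bars are SD (n = 4), and the last panel has a wider axis. Core subunits lie at −0.20 to −0.33 in Ctrl TAC and −0.37 to −0.48 in KO TAC, assembly factors at −0.11 to 0.03 and −0.24 to −0.10, cardiomyocyte markers at −0.17 to −0.06 and −0.34 to −0.29, and fibroblast markers at 0.67 to 1.03 and 1.175 to 1.29.

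In whole tissue, fewer cells of a type and less RNA per cell cannot be told apart, so markers of the cells in the heart were read beside these results. The tissue label held, with all 12 cardiomyocyte markers detected and summing to 59200 to 67600 CPM in Ctrl sham and 59600 to 65700 CPM in KO sham. This sum was 52800 to 57900 CPM in Ctrl TAC and 45700 to 48000 CPM in KO TAC. Of the 12 markers 5 fell and 2 rose in Ctrl hearts, 8 fell and 1 rose in KO hearts, and 3 were lower in KO TAC than in Ctrl TAC. Their median log2 fold changes were −0.145, −0.33 and −0.18 in these comparisons, beside −0.16, −0.34 and −0.14 over the subunits. For these and the marker counts below, 9.6% of all genes were called lower and 10.4% higher in Ctrl hearts. In KO hearts the shares were 16.5% and 17.8%, and between KO TAC and Ctrl TAC 1.32% and 1.36%. The summed level of the 37 subunits was 9570 to 10800 CPM in Ctrl sham, 10200 to 10600 in KO sham, 8480 to 9430 in Ctrl TAC and 7630 to 8590 in KO TAC.

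Fibroblast markers and most macrophage markers moved the opposite way. The 10 fibroblast markers, all detected, summed to 660 to 796 CPM in Ctrl sham, 692 to 729 in KO sham, 1200 to 1680 in Ctrl TAC and 1930 to 2100 in KO TAC, and 5 of them rose in Ctrl hearts, 9 in KO hearts and 2 between KO TAC and Ctrl TAC. The 8 macrophage markers summed to 138 to 176, 136 to 160, 199 to 214 and 187 to 256 CPM in the same order of groups. Of these 5 rose in Ctrl and 7 in KO hearts, and 1, Cd163, was lower in KO TAC than in Ctrl TAC (−0.61 ± 0.14, adjusted p = 0.0347, edgeR). The 7 endothelial markers (599 to 681, 606 to 741, 591 to 771 and 618 to 686 CPM), the 4 smooth muscle markers (80.2 to 126, 94.6 to 103, 76.5 to 113 and 96.3 to 123 CPM) and the 5 blood markers (893 to 1260, 906 to 1180, 530 to 1040 and 1020 to 1380 CPM) overlapped between groups in part or whole. Without the library labelled KO TAC 4 the KO TAC sums were 45700 to 48000 CPM for cardiomyocyte, 2000 to 2100 for fibroblast and 187 to 256 for macrophage markers, and 7630 to 8590 for the subunits. Adipocyte markers stayed at or under 3.14 CPM in sum. The part of these shifts in cell markers in the lower complex I levels was not tested.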

How the data were processed

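Poly(A) RNA of the heart apex of 16 mice (TRIzol, TruSeq libraries, paired reads of 150 bases) was sequenced 4 weeks after surgery. The authors deposited a table of raw counts of reads per gene. The submitters' processing notes name cutadapt 2.3, FastQC, HISAT2 2.1.0, edgeR 3.26.1 and build GRCm38, with no role or order; the counting program, annotation and strand setting are not given in the sources used here. Reads in exons that genes share could therefore belong to either gene.

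Gene identifiers were matched to GENCODE M21 (55227 of 55487, 99.5%), and library totals were 53169437 to 79404714 counts. Counts were analysed in R 4.3.3 with edgeR 4.0.16 (limma 3.58.1): filterByExpr (18275 genes kept), TMM, 1 robust quasi-likelihood fit to all 16 libraries with a mean per group, and 5 contrasts, with Benjamini-Hochberg adjustment over all 18275 genes and a call at 0.05. Standard errors are the fold change over the root of F. Log2 CPM used a prior count of 2. FPKM used the APPRIS principal protein-coding transcript, the longest where several share the best rank. The fit was tested on simulated data first. Replicates are separate mice, numbered in accession order.

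Named genes were the 4 marker genes of the set (Ndufs1, Ndufv1, Ndufa9 and Ndufaf1), the 7 core subunits, all assembly factors, the highest and lowest by level, up to 4 members of lowest p per comparison and direction, or 3 where none was called, and, of other lists, the called genes of lowest p. The members and lists were chosen with earlier results of these data known. Alternatives were DESeq2 1.42.0 and its size factors, other filters and thresholds, removal of mitochondrially encoded genes, terms for animal numbers, fits of 8 libraries and libraries left out; library totals without TMM were added after seeing the data. Values of 1 gene of the set are not reported here, although it enters the counts and medians.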

Additional observations from a re-analysis of the deposited data

Results flagged for a closer look

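In 96 groups of 4 mice (the named genes and groups), 1 library stood apart from the other 3 in 7 cases, by a gap over range above Dixon's 95% critical value for 4 samples, where chance gives about 5% of groups. Ndufaf4 was at 60.7 CPM in KO sham 3 against 52.1 to 52.8 in the others, and at 52.5 CPM in the library labelled KO TAC 4 against 40.0 to 40.5. Ndufaf7 was at 27.5 CPM in Ctrl sham 1 against 22.8 to 22.9. Ndufs1 was at 590 CPM in Ctrl TAC 3 against 541 to 549, and Ndufs7 was at 319 CPM in KO sham 3 against 297 to 298. In KO TAC 3, Ndufs3 was at 188 CPM against 195 to 196 and Ndufv2 at 289 CPM against 326 to 331.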

How the results depend on the processing

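No paired analysis was possible because replicate numbers follow accession order and name no shared litter, batch or day. The checks took 30 gene and comparison pairs, all of named genes called in the main fit, so a call could only be kept or lost. No pair changed direction in 720 checks, 597 stayed on their side of the threshold and 123 lost the call. Of all 37 subunits, 28 had a negative value after TAC in Ctrl hearts in all 27 fits, and 35 after TAC in KO hearts. The causes of the lost calls were not tested. Percentages in brackets are shares of all genes called in either direction. Members called after TAC in Ctrl were 16, where 9.6% of all genes were called lower and 10.4% higher. These members became 5 with total counts (23.7%), 3 with a term for the animal-number series (13.6%) and 5 with 8 libraries (16.2%). They became 9 without both Ctrl TAC 2 and the library labelled KO TAC 4 (18.7%), and 3 at an adjusted p of 0.01. Leaving out each library gave 4 (without Ctrl sham 1, 14.6%) to 18 (without Ctrl TAC 3, 18.8%, or KO TAC 2, 19.3%). The count was 5 without Ctrl TAC 4 (14.9%) and 9 without Ctrl sham 4 (18.6%). Members called after TAC in KO (38, 34.3%) became 23 with total counts (40.4%), and leave-one-out gave 33 (28.9%) to 40 (35.3%). Between KO TAC and Ctrl TAC (5, 2.68%) they became 1 with total counts (2.11%) and 2 without a filter beyond 1 count (0.784%). They became 9 with 10 counts in every library (3.9%) and 12 with DESeq2 (6.46%). They became 0 with the series term (0.0657%), with 8 libraries (0.877%), without that pair (0.594%) and at 0.01. Leave-one-out gave 0 (without Ctrl TAC 2, 0.342%, or KO TAC 3, 0.452%) to 11 (without Ctrl TAC 4, 3.96%). It gave 1 without Ctrl TAC 3 (1.03%) or KO TAC 1 (1.4%). Without KO sham 1 (1.82%), KO sham 2 (1.74%) or the library labelled KO TAC 4 (2.37%) it gave 2. Without KO sham 4 (2.36%), Ctrl TAC 1 (2.77%) or KO TAC 2 (0.817%) it gave 3, and without Ctrl sham 1 (3.03%) it gave 8. The interaction gave 2 with DESeq2 (0.722%) and 0 otherwise, and sham 0 throughout. After TAC in Ctrl and in KO hearts, the subunit median minus the factor median moved from its main value by less than the SD among mice given above. This held in all alternatives run, and describes the movement between fits, not the size of the difference.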
